A study of Mus musculus with 4 samples.

Results

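The genes described here are 10 feedback inhibitors of mitogen-activated protein (MAP) kinase signalling: the phosphatase genes Dusp1, Dusp2, Dusp4, Dusp5, Dusp6, Dusp8 and Dusp16, and the Sprouty genes Spry1, Spry2 and Spry4. They were chosen by symbol among the probes of the array that are not controls, which gave 11 probes for the 10 genes, of 39429 probes and 31896 gene names in all. All samples were 3D engineered muscle of the mouse, a cultured model of skeletal muscle. There was 1 array for each of 4 groups: tissue taken at 0 min after 30 min of acute EPS, unstimulated tissue at 0 min, tissue taken at 5 h after 30 min of acute EPS, and unstimulated tissue at 5 h. EPS is spelled electrical plus stimulation in the labels and is read here as electrical pulse stimulation, a stimulus used to make cultured muscle contract. The labels give no strain and do not say which cells the tissue was built from or whether tissues were pooled.

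MAP kinases (ERK, JNK and p38) are switched on by phosphorylation of a threonine and a tyrosine in the activation loop, and the dual-specificity phosphatases encoded by the Dusp genes remove both phosphates. Sprouty proteins act upstream, where they dampen signalling from receptor tyrosine kinases to Ras and ERK. Several of these genes are themselves induced by MAP kinase activity or calcium, which makes them negative feedback loops, and contraction is a known activator of MAP kinases in skeletal muscle.

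The level of a gene is its background-subtracted signal divided by the 75th percentile signal of the array, in log2, and a difference of 1 is 2-fold. All 11 probes were well above background on all 4 arrays, none was saturated and none carried an outlier flag, so all 10 genes entered every comparison. Each of these probes was printed 1 time per array. Technical error was therefore taken from other probes, printed 10 times on each array and within 1 log2 unit of the gene's mean level. A difference is said to exceed the spot error where it is larger than 2 times the median standard deviation between spots of such a difference. Over repeated probes of all levels, that standard deviation had a median of 0.08 in each EPS comparison. Its 95th percentile was 0.29 at 0 min and 0.30 at 5 h, so some probes vary more than the rule allows for. With 1 array per group no test between groups was run. The spot error stems from repeated spots of the same labelled RNA and leaves out how tissues vary, and a 2-fold size rule stands in place of a test. No share of all genes beyond the spot error is given, so counts of members beyond it have no background to be read against. In a whole tissue, a smaller number of cells of a type and less RNA per cell cannot be told apart.

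The arrays shared 1 slide and 1 scan, and 19164 to 19423 genes were well above background on each. Mouse leukocytes are named in the labelling protocol, whereas titles, tissue field and extraction protocol all give muscle. All 14 skeletal muscle markers were well above background on all 4 arrays, while the leukocyte markers Ptprc and Lyz2 were on none and the leukocyte marker Itgam was on all 4. The summed signal of muscle markers, in units of the 75th percentile, was 911.3 with EPS and 799.7 without EPS at 0 min, and 698.2 with EPS and 718.5 without EPS at 5 h. That of 9 leukocyte markers on the array, 5 or 6 of them well above background, was 7.75 with EPS and 8.47 without EPS at 0 min, and 6.49 with EPS and 7.29 without EPS at 5 h. The 7 endothelial markers summed to 1.99 to 3.51. Pecam1, Kdr and Vwf were well above background on all 4 arrays, Cldn5 on that of unstimulated tissue at 5 h alone, and Cdh5, Tek and Emcn on none. Kdr was the brightest of them, with levels of 0.89 to 1.74.

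Promoters of the genes whose levels differed by 2-fold with EPS are shown as context for the values that follow, with that of Dusp8, which shares a motif with Dusp1. They are the 250 bases before the RefSeq start on build GRCm38.p6, read 5′ to 3′ on the gene's strand: chr2:127335909-127336158 (plus strand) for Dusp2, chr17:26508473-26508722 (minus strand) for Dusp1, chr19:53528895-53529144 (plus strand) for Dusp5 and chr7:142095285-142095534 (minus strand) for Dusp8. Capitals mark matches to any of the motifs searched.
Dusp2: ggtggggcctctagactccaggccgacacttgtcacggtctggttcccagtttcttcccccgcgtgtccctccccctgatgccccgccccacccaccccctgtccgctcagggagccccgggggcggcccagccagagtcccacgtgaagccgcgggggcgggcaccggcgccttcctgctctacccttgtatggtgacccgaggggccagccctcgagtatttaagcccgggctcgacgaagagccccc
Dusp1: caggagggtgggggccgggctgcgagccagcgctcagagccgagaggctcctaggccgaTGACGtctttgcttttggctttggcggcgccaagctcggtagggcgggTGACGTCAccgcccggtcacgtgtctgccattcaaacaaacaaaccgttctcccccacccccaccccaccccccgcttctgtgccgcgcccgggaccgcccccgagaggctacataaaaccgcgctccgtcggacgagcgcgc
Dusp5: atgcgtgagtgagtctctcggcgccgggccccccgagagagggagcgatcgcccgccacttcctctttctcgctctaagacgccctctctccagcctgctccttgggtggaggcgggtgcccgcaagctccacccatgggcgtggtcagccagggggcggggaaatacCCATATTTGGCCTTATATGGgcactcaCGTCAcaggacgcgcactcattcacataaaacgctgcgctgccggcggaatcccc
Dusp8: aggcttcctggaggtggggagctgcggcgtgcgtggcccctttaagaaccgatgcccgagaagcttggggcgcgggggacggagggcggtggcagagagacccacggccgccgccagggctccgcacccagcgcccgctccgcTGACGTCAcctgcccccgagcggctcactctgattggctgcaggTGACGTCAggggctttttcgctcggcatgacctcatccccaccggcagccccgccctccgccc

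Windows of 250 bases before to 50 after the start were matched for 8 of the 10 genes. They were searched on both strands for the cyclic AMP response element (CRE) TGACGTCA, its core TGACG, the AP-1 site TGANTCA, the ETS site CCGGAAGT and the CArG box of serum response factor. The full CRE, which holds the core on either strand and is counted in both, was found in Dusp1, 143 bases before the start, and in Dusp8, which held 2 matches, the nearer 63 bases before it. These 2 of 8 windows compare with 1.79% of all 32851 promoter windows. The core was found in 5 of the 8 (Dusp1, Dusp2, Dusp5, Dusp8 and Dusp16), against 20.8% of all windows, and the only match in Dusp2 lay 5 bases after the start. CArG boxes were found in Dusp5, at 82 and 72 bases before the start, against 1.63% of all windows with 1. AP-1 and ETS sites of these letters were in none of the 8, against 7.81% and 3.89% of all windows. A match is a run of letters and not evidence of binding.

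Right after stimulation, Dusp2 and Dusp1 stood more than 2-fold above the unstimulated tissue, and Dusp5 and Dusp6 were the next in size. Of the 10 genes, 2 were at least 2-fold higher, against 0.549% of all 18589 genes measured at 0 min, and 0 were 2-fold lower, against 0.791%. The median difference of the 10 was 0.35 on the log2 scale, that of all genes 0.02. In all, 7 genes lay above 0, against 54.5% of all genes, and 6 of these 7 exceeded the spot error, while Spry4 did not. The count of 6 has no share of all genes to be read against. The 10th to 90th percentile of all genes ran from -0.31 to 0.27. Below 0 lay Spry2, beyond the spot error, and Dusp4 and Dusp16, within it. In the same comparison the muscle markers had a median of 0.15 (11 of 14 above 0) and the fibroblast markers of 0.05 (4 of 8 above 0). Of 5 leukocyte markers measured, 2 were above 0 and 3 below (median -0.14), and 1, Cd68, was 2-fold lower with EPS (-1.33). Cd68 was dim, with levels of -5.02 and -3.69 with and without EPS at 0 min, and its EPS difference at 5 h was 0.64. The part of these markers in the members' values was not tested.

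Dusp2 encodes a nuclear phosphatase known from activated lymphocytes, and its probe lies at chr2:127163930-127163989, plus strand. Probe positions are those of the array files, on build mm9, and the exon or UTR they fall in was not annotated here. Its signal was 6032 with EPS and 2698 without EPS at 0 min, and 1773 with EPS and 1054 without EPS at 5 h. The levels were 2.46 and 0.99 with and without EPS at 0 min, and 0.25 and -0.28 with and without EPS at 5 h. Both 0 min arrays thus stood above both 5 h arrays, and EPS stood above no EPS at each time. The difference with EPS at 0 min was 1.48 (2.79-fold), rank 34 from the top among 18589 genes and 19.4 times the spot standard deviation.

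Dusp1 encodes a nuclear phosphatase for p38, JNK and ERK that is an immediate early gene in many tissues. The array files place its probe on chromosome 17, minus strand, at 26642526 to 26642536, a span of 11 bases that does not cover the 60 bases of the probe. Its signal was 3028 with EPS and 1685 without EPS at 0 min, and 1494 with EPS and 1217 without EPS at 5 h. The levels were 1.47 and 0.31 with and without EPS at 0 min, and 0.00 and -0.07 with and without EPS at 5 h. The array of EPS at 0 min stood apart from the other 3. The difference at 0 min was 1.16 (2.24-fold, rank 78), and that at 5 h was 0.07, within the spot error of 0.14.

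Dusp6 encodes a cytoplasmic phosphatase that acts on ERK, and its transcript is a common readout of ERK activity (probe at chr10:98729985-98730044, plus strand). Its signal was 9443 with EPS and 7834.5 without EPS at 0 min, and 9696 with EPS and 6193 without EPS at 5 h. The levels were 3.11 and 2.52 with and without EPS at 0 min, and 2.70 and 2.27 with and without EPS at 5 h. Both EPS arrays stood above both unstimulated arrays. The differences with EPS were 0.59 at 0 min and 0.43 at 5 h (1.34-fold), both beyond the spot error and under 2-fold. All 3 gaps between neighbours in the order of its 4 levels exceeded the spot error.

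Dusp5 encodes a nuclear phosphatase for ERK (probe at chr19:53615682-53615741, plus strand), and its probe was dim. The signal was 87.6 with EPS and 70.6 without EPS at 0 min, and 143.9 with EPS and 55.2 without EPS at 5 h. The lowest signals among probes well above background lay between 14.8 and 20.3 on the 4 arrays. Its levels were -3.64 and -4.27 with and without EPS at 0 min, and -3.37 and -4.53 with and without EPS at 5 h, so both EPS arrays stood above both unstimulated arrays and differed from each other within the spot error. The difference was 0.63 at 0 min (1.55-fold) and 1.16 at 5 h (2.24-fold, rank 88 among 18543 genes), each beyond the spot error of 0.33 and 0.34. With normexp background correction, a model-based alternative to the scanner software's subtraction, the 5 h difference was 0.57, under 2-fold.

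Dusp4, Dusp8 and Dusp16 encode the remaining phosphatases: Dusp4 is a nuclear relative of Dusp1, while Dusp8 and Dusp16 act on JNK and p38. Dusp4 (chr8:35882045-35882104, plus strand) had levels of -1.02 and -0.999 with and without EPS at 0 min, and 0.13 and -0.24 with and without EPS at 5 h. Its difference with EPS was -0.02 at 0 min, within the spot error and 0.02 when each array was centred on its median signal in place of the 75th percentile, and 0.36 at 5 h (1.29-fold), beyond it. Dusp8 (chr7:149267534-149267593, minus strand) had levels of 0.44 and 0.09 with and without EPS at 0 min, and -0.85 and -0.69 with and without EPS at 5 h. It was higher with EPS by 0.35 at 0 min and differed by -0.16 at 5 h, the only member lower with EPS at 5 h. The 5 h value exceeded the spot error of 0.15 by little, and was -0.08, within it, with median centring.

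Dusp16 was the member with 2 probes, both on chromosome 6, minus strand. The brighter, at chr6:134665783-134665842, had levels of 0.62 and 0.64 with and without EPS at 0 min, and 1.01 and 0.77 with and without EPS at 5 h. The dimmer, at chr6:134668003-134668062, had levels of -4.43 and -4.36 with and without EPS at 0 min, and -4.58 and -4.63 with and without EPS at 5 h. The EPS differences had the same sign in both probes, at -0.01 and -0.07 at 0 min and 0.25 and 0.04 at 5 h. The time differences did not: 5 h minus 0 min was 0.39 in the brighter and -0.15 in the dimmer probe after EPS, and 0.13 and -0.26 without EPS. With the mean of probes in place of the brighter, the difference without EPS was -0.07.

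**Figure D1:**
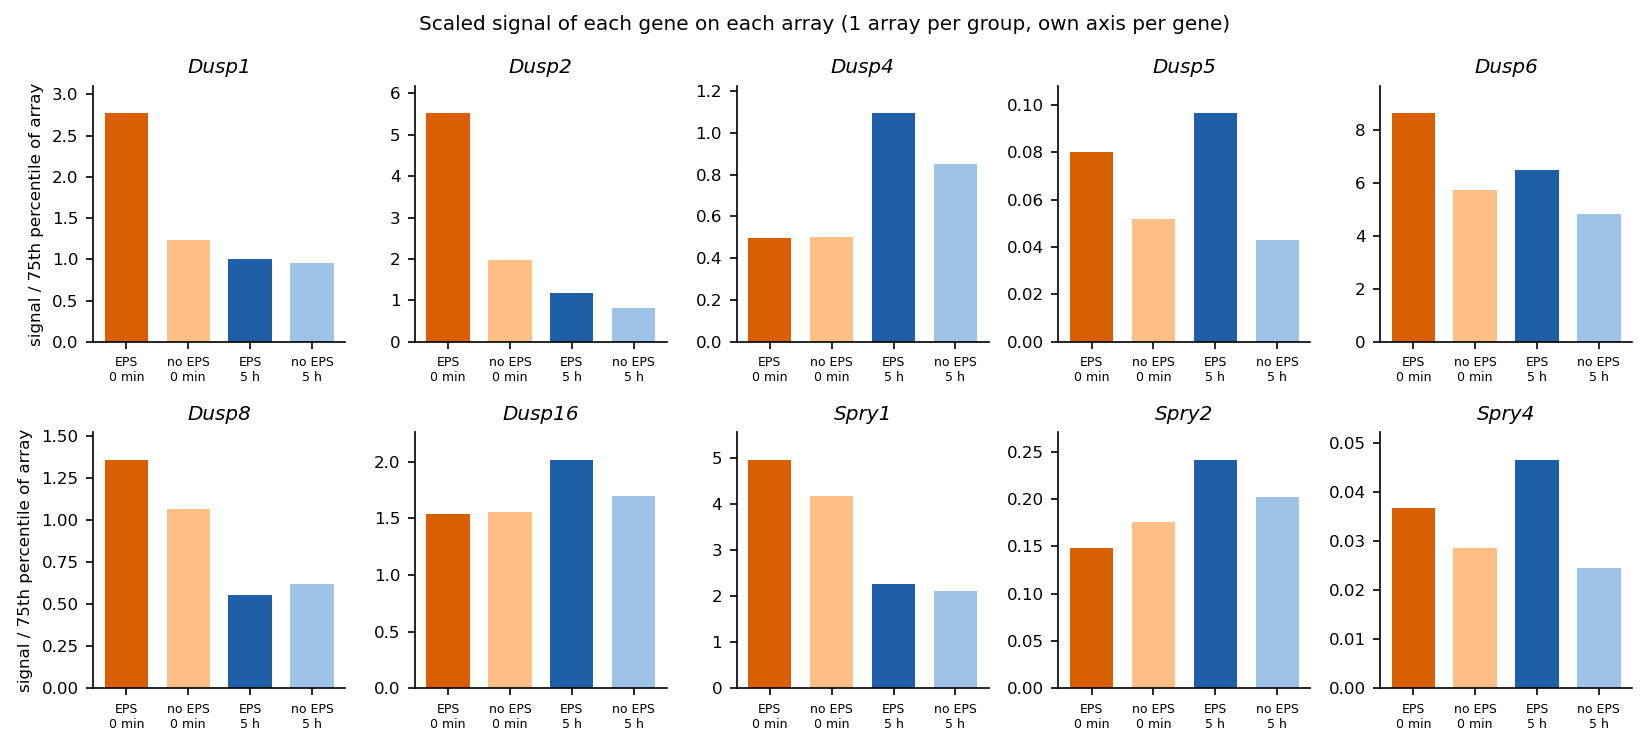
Signal of each gene divided by the array's 75th percentile, on a linear axis of its own for each gene; each bar is 1 array, with no replicates. Dusp1, Dusp2, Dusp6, Dusp8 and Spry1 have their tallest bar with EPS at 0 min, and Dusp4, Dusp5, Dusp16, Spry2 and Spry4 with EPS at 5 h.

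The Sprouty genes differed by less than 2-fold with EPS at either time. Spry1 (chr3:37543403-37543462, plus strand), a Sprouty gene known to act in muscle stem cells, had levels of 2.31 and 2.06 with and without EPS at 0 min, and 1.18 and 1.08 with and without EPS at 5 h. The 0 min arrays stood well above the 5 h arrays, and the EPS differences were 0.25 at 0 min, beyond the spot error, and 0.10 at 5 h, within it. Spry2 (chr14:106291845-106291904, minus strand) had levels of -2.75 and -2.51 with and without EPS at 0 min, and -2.05 and -2.31 with and without EPS at 5 h. Its EPS differences were -0.24 at 0 min and 0.26 at 5 h, each just beyond the spot error of 0.22. The 0 min value was between -0.206 and -0.21, within the spot error, under normexp, quantile normalization and median centring, and the 5 h value was 0.18, within it, under normexp.

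Spry4, on chromosome 18, had the dimmest of the probes used, with signals of 40.2 and 39.1 with and without EPS at 0 min, and 69.4 and 31.3 with and without EPS at 5 h. The scanner software's own error of these signals was between 11.6% and 15.6%. The levels were -4.76 and -5.12 with and without EPS at 0 min, and -4.43 and -5.35 with and without EPS at 5 h. The EPS difference was 0.36 at 0 min, within the spot error of 0.47, and 0.93 at 5 h (1.90-fold, rank 157), beyond the spot error of 0.57. Spry4 at 5 h stood at 1.02 under quantile normalization and 1.01 with median centring, and at 0.24 under normexp background correction, so its side of the 2-fold line changed with the setting. No neighbouring pair in the order of its 4 levels differed by more than the spot error.

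At 5 h, Dusp5 was the only member at least 2-fold higher with EPS, 1 of 10 against 0.69% of all 18543 genes, and none was 2-fold lower, against 0.523%. The median difference of the 10 was 0.31, that of all genes -0.03. Of the 10 genes, 9 lay above 0, against 43.4% of all genes, and 7 of these 9 exceeded the spot error, while Dusp1 and Spry1 did not. The count of 7 has no share of all genes to be read against. The 10th to 90th percentile of all genes ran from -0.35 to 0.24. Fibroblast markers moved with this comparison: 8 of 8 measured markers were lower with EPS at 5 h, with a median of -0.30, and their summed signal was 249.8 with EPS and 292.5 without EPS, against 350.1 with EPS and 319.2 without EPS at 0 min. Thy1 was well above background on no array. The part of this shift in the values of the 10 genes was not tested.

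**Figure D2:**
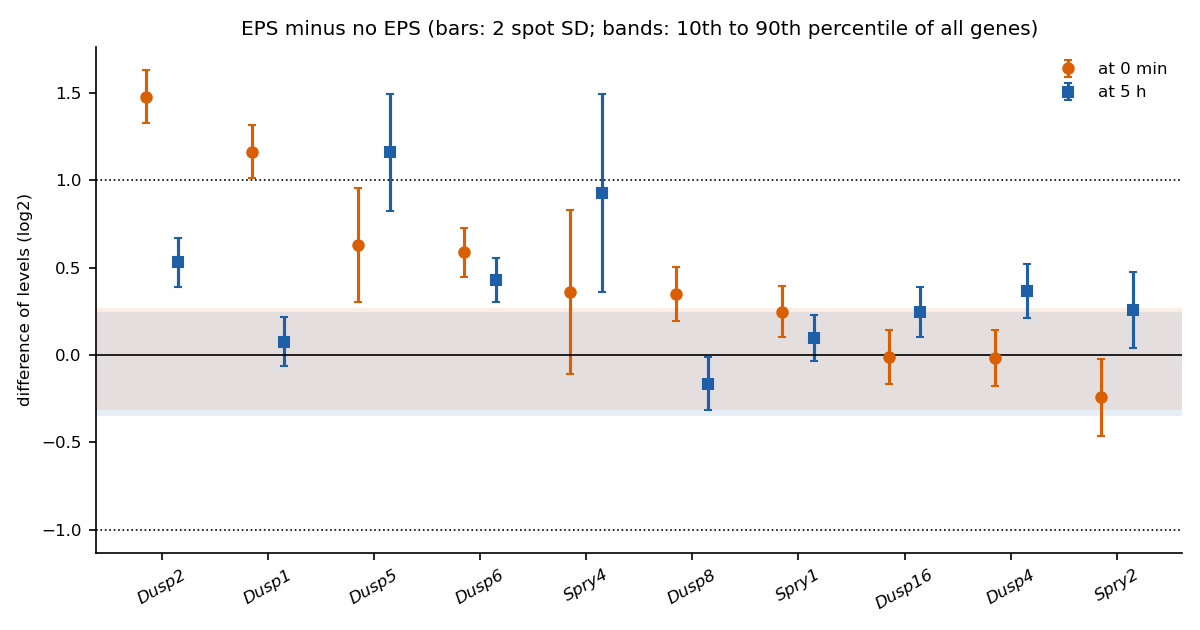
Difference of levels between EPS and no EPS (log2) for each gene at 0 min and at 5 h; bars are 2 spot standard deviations, dotted lines 2-fold, and bands the 10th to 90th percentile of all genes. Dusp2 and Dusp1 lie above 2-fold at 0 min (1.48 and 1.16) and Dusp5 at 5 h (1.16).

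The EPS comparisons at 0 min and 5 h share no array. Dusp1, Dusp2, Dusp5, Dusp6, Spry1 and Spry4 were above 0 at both times, 6 of 10 genes against 28.5% of the 18105 genes well above background on all 4 arrays. Among these 6, Dusp1 and Spry1 at 5 h and Spry4 at 0 min were within the spot error. No member was below 0 at both, against 30.3% of all genes. Dusp4, Dusp16 and Spry2 were below 0 at 0 min and above it at 5 h, and Dusp8 the reverse. Opposite signs were thus seen in 4 of 10 members, near the 41.2% of all genes. Under median centring Dusp4 and Dusp16 stood at 0.02 each at 0 min, above 0. The EPS effect at 5 h minus that at 0 min was -1.09 for Dusp1, the 1 member at least 2-fold lower, against 0.994% of all genes, and 0 were 2-fold higher, against 1.0%. This quantity was above 0 for 5 of 10 members, against 41.9% of all genes. It was -0.95 for Dusp2 and between -0.51 and 0.57 for the other 8 genes. The upper end is Spry4, within the spot error and at -0.08 under normexp. In the same quantity 8 of 8 fibroblast markers were below 0 (median -0.41) and 12 of 14 muscle markers (median -0.15), and their part in the members' values was not tested.

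All 10 genes had their highest level on an EPS array, against 55.6% of all 18105 genes. This count was 10 with normexp, quantile normalization and median centring too. It was also 10 with the mean of probes, which could alter Dusp16 alone. The dimmer probe of Dusp16, however, was highest without EPS at 0 min (-4.36, against -4.43 with EPS at 0 min). The highest level was on EPS at 0 min for 5 genes (29.6% of all genes) and on EPS at 5 h for the other 5 (26.0% of all genes). With normexp, Spry4 had its highest level on EPS at 0 min, which made 6 and 4. The lowest level was on the unstimulated 5 h array for 6 of the 10, against 16.4% of all genes. Among these, the gap to the next lowest array was within the spot error for Dusp1, Dusp5, Spry1 and Spry4, and beyond it for Dusp2 and Dusp6. These counts share arrays with the differences above.

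Levels also differed with time, in comparisons that share arrays with those of EPS. After EPS, 4 genes were at least 2-fold lower at 5 h than at 0 min (Dusp2, Dusp1, Dusp8 and Spry1), against 3.65% of all 18470 genes, and Dusp4 alone was 2-fold higher, against 2.4%. Dusp2 differed by -2.22 (4.64-fold lower), Dusp1 by -1.47, Dusp8 by -1.29 and Spry1 by -1.13, and Dusp4 by 1.15. With median centring Spry1 stood at -0.95, which left 3 genes 2-fold lower. Without EPS, Dusp2 alone was 2-fold lower at 5 h than at 0 min (-1.27), against 2.96% of all 18484 genes, and no gene was 2-fold higher, against 1.74%. Spry1 (-0.98), Dusp8 (-0.78) and Dusp1 (-0.38) were lower in unstimulated tissue by less than 2-fold, and Dusp4 was higher by 0.76. Under quantile normalization Spry1 stood at -1.05, which made 2 genes 2-fold lower. In the main setting all of these exceeded the spot error. Above 0 were 5 of 10 genes after EPS, against 42.5% of all genes, and 3 of 10 without EPS, against 47.5%. The medians of the 10 genes were -0.07 after EPS and -0.26 without EPS, and those of all genes -0.08 and -0.02. Dusp5 and Spry4 were above 0 after EPS (0.27 and 0.34) and below 0 without EPS (-0.26 and -0.23), all within the spot error. Skeletal muscle markers had median time differences of -0.40 after EPS and -0.20 without EPS (11 and 12 of 14 below 0), and fibroblast markers of -0.60 and -0.13 (7 and 5 of 8 below 0). Their part in the members' values was not tested.

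**Figure D3:**
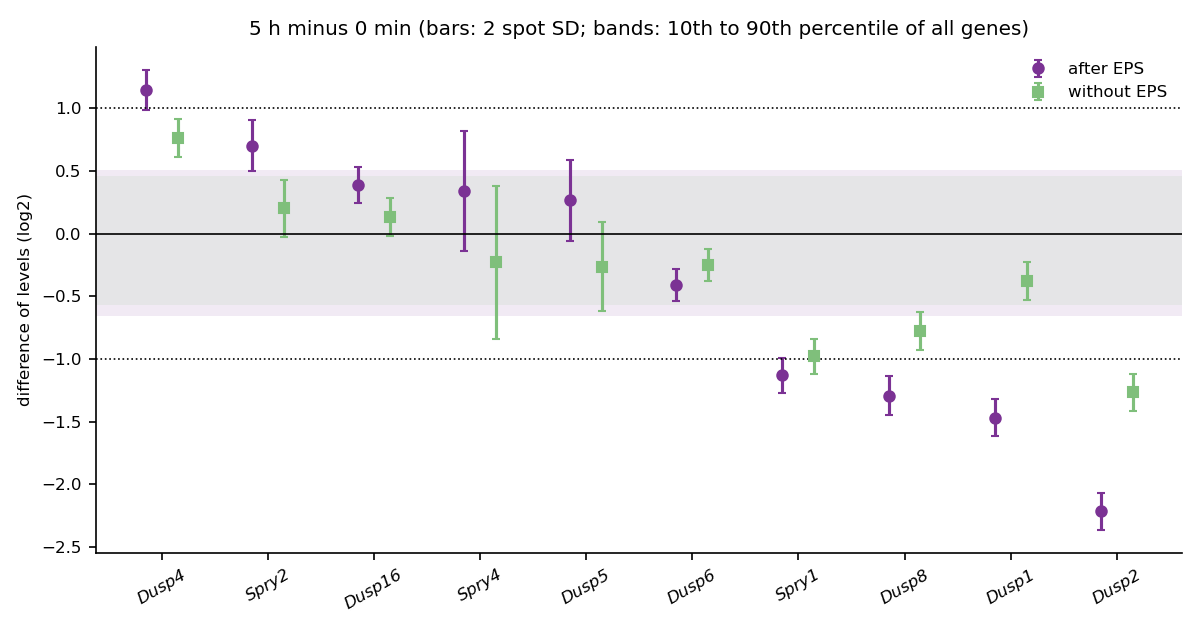
Difference of levels between 5 h and 0 min (log2) for each gene, after EPS and without EPS; bars are 2 spot standard deviations, dotted lines 2-fold, and bands the 10th to 90th percentile of all genes. Dusp2, Dusp1, Dusp8 and Spry1 lie lowest and Dusp4 highest in both comparisons.

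The kinase cascades that these inhibitors act on are given against the shares of all genes, 0.549% higher and 0.791% lower at 0 min and 0.69% higher and 0.523% lower at 5 h, at which lists of this size would hold about 0 such genes. Of 25 genes of the Ras-ERK cascade, 0 were 2-fold higher or lower at 0 min (median -0.01) or at 5 h (median 0.03). Of 21 measured genes of the p38 and JNK cascades, 0 were 2-fold different at 0 min (median 0.08). At 5 h 1 was, Map2k6, which encodes a kinase that activates p38, higher by 1.21 (median 0.07). Mapk10, not among the 21, was well above background on the array of EPS at 5 h alone (level -4.62, against -8.42 without EPS at 5 h). Map2k6 had levels of -2.83 and -2.47 with and without EPS at 0 min, and -2.28 and -3.48 with and without EPS at 5 h, so the unstimulated 5 h array was the low one. FGF ligands and receptors had 0 of 14 genes at 2-fold at either time (medians 0.12 at 0 min and -0.20 at 5 h).

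The other feedback genes are read against the same shares. Of 16 measured other MAP kinase and dual-specificity phosphatases, 0 were 2-fold different with EPS at 0 min (median 0.17, 13 above 0) or at 5 h (median 0.06, 10 above 0). Of all genes, 54.5% were above 0 at 0 min and 43.4% at 5 h. Ptprr, dim and not among the 16, was well above background on the unstimulated arrays alone. Its levels were -7.44 and -5.78 with and without EPS at 0 min, and -7.14 and -6.08 with and without EPS at 5 h. Among 15 measured feedback inhibitors of receptor and cytokine signalling, 1 was 2-fold higher at 0 min, Cish (1.35), and 0 at 5 h. At each time 8 of them were above 0 and 7 below. They ran from -0.48 to 1.35 at 0 min (median 0.09) and from -0.77 to 0.55 at 5 h (median 0.06). Errfi1, an inhibitor of the EGF receptor, stood at 0.93 at 0 min and 0.51 at 5 h, and the Sprouty relatives Spred1 and Spred2 at 0.09 and -0.21 at 0 min and 0.24 and 0.17 at 5 h. Spry3 was well above background on no array.

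Transcripts known to respond to ERK had 3 of 23 genes at least 2-fold higher with EPS at 0 min, against 0.549% of all genes, and 0 lower. These were the transcription factor genes Fos (1.24), Fosb (1.22) and Egr2 (1.01), with 20 of 23 above 0, against 54.5% of all genes, and a median of 0.47. At 5 h another 3 of 22 were 2-fold higher, against 0.69% of all genes, and 0 lower: the EGF family ligands Hbegf (1.23) and Ereg (1.22) and the urokinase receptor gene Plaur (1.05), with 15 of 22 above 0, against 43.4% of all genes, and a median of 0.26. Fos, like Dusp1, stood near 0 at 5 h (0.09), while Fosb (0.77), like Dusp2 (0.53), stood above 0 at both times.

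**Figure D4:**
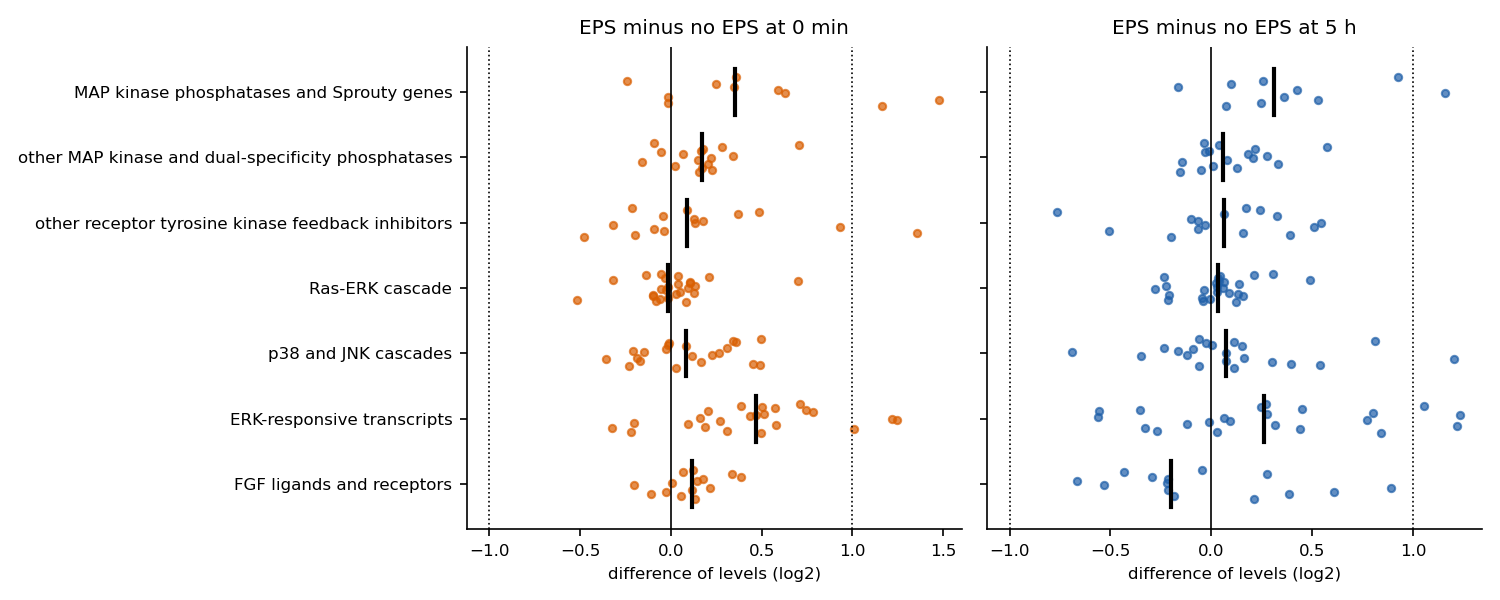
Difference of levels between EPS and no EPS (log2) at 0 min and 5 h; each point is 1 gene well above background on both arrays, and black lines are list medians. The ERK cascade lies around 0 (medians -0.01 and 0.03), and the MAP kinase phosphatases and Sprouty genes lie mostly above 0 (medians 0.35 and 0.31).

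The members with the widest range of levels over the 4 arrays were Dusp2 (2.74), Dusp1 (1.54) and Dusp8 (1.29). Likeness was measured as the Euclidean distance between levels centred on each gene's mean over the 4 arrays, among 10463 named genes. Nearest to Dusp2 were Fosb (distance 0.26) and the matricellular genes Ccn1 (0.63) and Ccn2 (0.64). Fosb had levels of -0.66 and -1.88 with and without EPS at 0 min, and -2.56 and -3.34 with and without EPS at 5 h. Nearest to Dusp1 were Arl4d (0.21), Atp9a (0.29) and Otud1 (0.30), and nearest to Dusp8 were Nmnat3 (0.08), Sh3gl3 (0.10) and Vwa1 (0.11). The distances are over 4 arrays and carry no test.

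**Figure D5:**
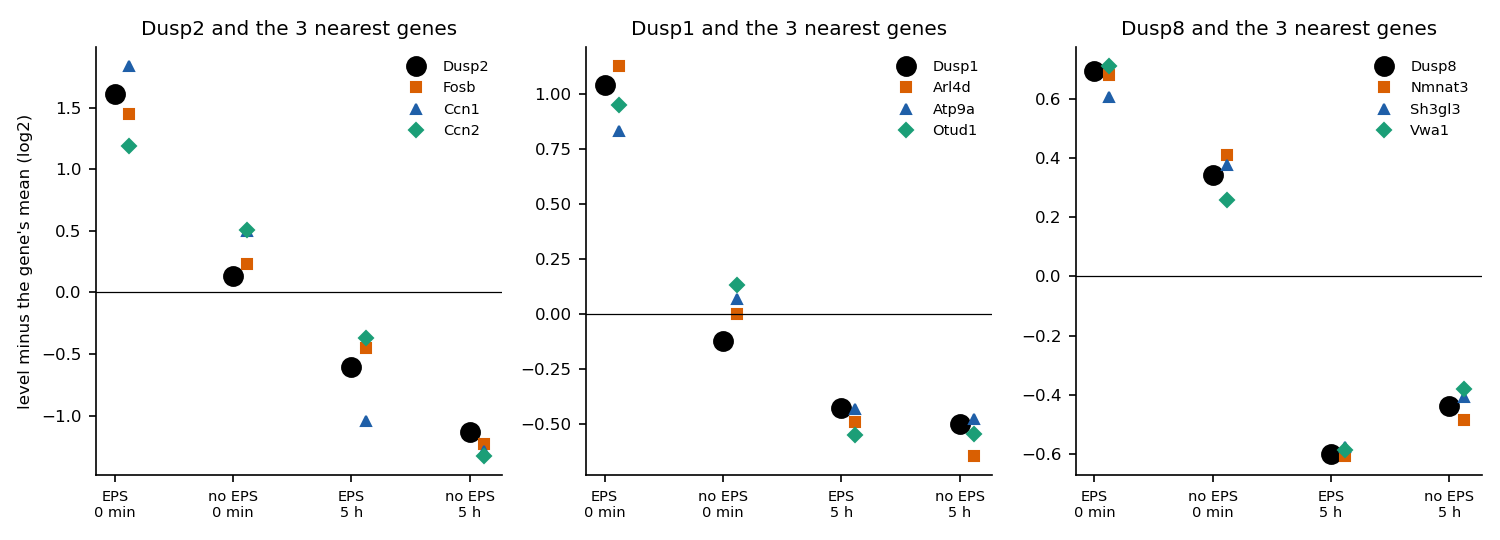
Level minus the gene's mean over the 4 arrays (log2) for Dusp2, Dusp1 and Dusp8 (black circles) and the 3 genes nearest to each (coloured markers, set slightly to the right). Dusp2 and Fosb lie in the same order over the arrays, highest with EPS at 0 min and lowest without EPS at 5 h.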

How the data were processed

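Cy3-labelled cRNA, per the labels' protocols, was hybridised to 4 single-colour arrays. The authors deposited the intensity of each spot, background-subtracted and detrended in Agilent Feature Extraction 10.7.3.1, per the file headers. Each spot also has other columns with flags of 0 or 1 (signal over background, saturation, outlier). The deposited value table held the same intensities, with all 44397 values on each array equal to the processed signal within a relative tolerance of 0.001.

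From these, the level (log2 of the signal minus the array's 75th percentile) was computed without outlier spots (112 to 141 per array). Spots of a probe were averaged, and of several probes the brightest stood for the gene. Of 39429 probes, 26055 were named through RefSeq accessions (GRCm38.p6, used for names and promoters) and the rest kept the name in the files. Members, lists, the 2-fold rule and the rule for named genes were chosen with earlier results of these data known. Named genes are all members, list genes at least 2-fold different with EPS (at most 4 per list and comparison), and nearest genes. For each of the 3 members of widest range the 3 nearest genes were named. Errfi1, Spred1, Spred2, Spry3, Ptprr, Mapk10 and the markers named singly were named after their values were seen. The steps were tested on simulated data. Python 3.11.15, pandas 2.3.3, R 4.3.3 and limma 3.58.1 (normexp, offset 50) were used. The number of arrays limits the precision. Alternatives were normexp, quantile normalization, median centring, 3 filters on dim genes, the mean of probes and a 1.5-fold rule.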

Additional observations from a re-analysis of the deposited data

Results flagged for a closer look

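Dusp4, Dusp8, Dusp16 and Spry2 had EPS differences of opposite sign at 0 min and 5 h. Opposite signs were also seen in 41.2% of all 18105 genes, near the share among the members. Opposite signs alone therefore do not set these members apart from other genes. The EPS effect at 5 h minus that at 0 min was 0.38 for Dusp4, -0.51 for Dusp8, 0.26 for Dusp16 and 0.50 for Spry2 on the log2 scale. Each rests on 4 single arrays, and the difference was not tested. Each exceeded 2 spot standard deviations of the difference of effects. For Dusp4 and Dusp16 the 0 min value was within the spot error, and it was above 0 under median centring. For Dusp8 and Spry2 both values exceeded the spot error in the main setting. Dusp8 at 5 h was within it with median centring (-0.08), and Spry2 at 0 min was within it under normexp, quantile normalization and median centring (-0.206 to -0.21), as was Spry2 at 5 h under normexp (0.18).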

How the results depend on the processing

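No paired analysis was possible because each group has 1 array, and none could be left out. No member that reached 2-fold changed direction under normexp, quantile normalization or median centring. The mean of probes could alter Dusp16 alone, the only member with more than 1 probe, which did not reach 2-fold. Of members under 2-fold, Spry4 changed sign under normexp for 5 h minus 0 min after EPS (-0.10, against 0.34) and for the difference of EPS effects (-0.08, against 0.57), Dusp4 and Dusp16 did at 0 min with median centring (0.02 each), and Dusp16 did for time without EPS with the mean of probes (-0.07). The count of members 2-fold higher with EPS at 5 h (1) was 0 under normexp, where Dusp5 stood at 0.57, and 2 under quantile normalization and median centring, where Spry4 passed 2-fold. The count 2-fold lower at 5 h without EPS (1) was 2 under quantile normalization, where Spry1 stood at -1.05. After EPS, Spry1 stood at -0.95 under median centring, which gave all genes a median of 0.10 for time after EPS (-0.08 in the main setting) and 0.11 without EPS (-0.02). The median of members for 5 h minus 0 min after EPS (-0.07) was -0.24 under normexp and 0.11 under median centring. With a 1.5-fold rule the counts higher with EPS were 4 at 0 min (2.01% of all genes) and 2 at 5 h (2.06%). Those for 5 h against 0 min were 2 higher after EPS (7.91% of all genes), and 1 higher and 3 lower without EPS (6.6% and 9.38%), and 2 were lower for the difference of EPS effects (4.0%). The filters on dim genes could not change these member counts and medians, because every member was well above background on every array.

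Over all genes, normexp left 42 higher and 29 lower with EPS at 0 min (102 and 147 in the main setting) and 43 and 31 at 5 h (128 and 97). Without a filter the counts were 1074 and 1172 at 0 min and 1085 and 1445 at 5 h, and with a 1.5-fold rule 374 and 621, and 382 and 548. Median centring gave 161 higher and 74 lower with EPS at 5 h, 737 and 414 for time after EPS (443 and 674 in the main setting) and 470 and 388 for time without EPS (322 and 547). The cause of these shifts was not tested.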
